A study of Mus musculus with 6 samples.

Results

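The microRNAs (miRNAs) described here are 4 mature miRNAs of liver and gut, mmu-miR-122-5p, mmu-miR-122-3p, mmu-miR-192-5p and mmu-miR-194-5p, written below without the species prefix and measured in exosomes from macrophage cultures. They were chosen by name, as miRNAs not expected from macrophages, and make up 4 of the 707 mature miRNAs in the deposited count table. Exosomes are small vesicles that cells release. The supernatants came from bone marrow-derived macrophages of C57BL/6 mice, in 3 wild-type (WT) samples and 3 samples of genotype Roquin-1 san:san. Roquin-1 binds stem-loops of messenger RNAs and triggers their degradation, and the san:san mice carry 2 copies of the sanroque allele of its gene. The sources used here do not give the age, number or pooling of the mice, or any treatment of the cells. Since no label says that replicates are separate mice or cultures, the p-values reflect only how far these samples spread, which may be technical.

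miR-122 is the dominant miRNA of hepatocytes, where it supports cholesterol and lipid metabolism, and it circulates in blood plasma. miR-192 and miR-194 are expressed in the epithelium of the intestine, in liver and in kidney, and belong to paired hairpins that are transcribed together. A hairpin gives a 5p and a 3p mature strand, of which usually 1 dominates, and the seed near the 5′ end of the mature strand selects the messenger RNAs it represses.

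Mature sequences from RefSeq (GRCm38.p6) were matched for 2 of the 4, miR-192-5p and miR-194-5p. They are shown with the strands of the same paired hairpins that had counts here, because the arms and partners are compared in the results. Each is written 5′ to 3′ with the seed, bases 2 to 8, in capitals.
miR-192-5p: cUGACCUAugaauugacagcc
miR-215-5p: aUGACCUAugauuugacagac
miR-194-5p: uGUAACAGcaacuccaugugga
miR-192-3p: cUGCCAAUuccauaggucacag
miR-194-2-3p: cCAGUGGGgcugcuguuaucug
miR-192-5p and miR-215-5p share the seed UGACCUA and are identical at 18 of 21 positions, whereas miR-194-5p has the seed GUAACAG. In the GRCm38 annotation miR-194-5p is encoded by 2 hairpins with the same mature sequence, so its counts cannot be assigned to either. On chromosome 19, plus strand, Mir194-2 (6264643 to 6264728) lies 115 bases before Mir192 (6264844 to 6264932), and no other annotated gene overlaps either. On chromosome 1, plus strand, Mir194-1 (185313319 to 185313385) lies 195 bases before Mir215 (185313581 to 185313692). Mir194-1 falls in an intron and Mir215 in exon 2 of the noncoding gene 2010103J01Rik, and both lie antisense to introns of Iars2, which encodes a mitochondrial isoleucyl-tRNA synthetase.

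Depth differed between the genotypes without overlap, with 12447 to 28884 miRNA counts per WT library and 126098 to 185901 per san:san library. Counts were scaled with trimmed-mean (TMM) factors to CPM, which are counts scaled to a common library total, and on this scale 1 count was worth 27.8 to 69.5 CPM for WT against 6.31 to 10.2 CPM for san:san. Counts are relative to the other miRNAs of a library, so fewer vesicles of a source and less of its RNA per vesicle cannot be told apart. Of the 9 names on a macrophage and myeloid list, which includes miR-223-3p and miR-142a-3p, all were detected in both genotypes. The list held 5.56% to 6.60% of WT counts and 10.9% to 12.3% of san:san counts.

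Of the 4 liver and gut miRNAs, miR-192-5p, miR-194-5p and miR-122-3p rose in san:san, with TMM scaling and a threshold of 0.05 on the adjusted p of edgeR's quasi-likelihood test. The most abundant of them, miR-122-5p, did not pass. All 4 passed the filter on low counts, but miR-122-3p did so through its san:san counts alone. A miRNA that passes in this way can hardly be called lower in san:san. Among the 254 miRNAs tested, 64.2% were called in either direction and 34.6% were called higher in san:san. Their median log2 fold change was 1.34, against 0.30 over all 254. These counts depended on the scaling: with total counts in place of TMM factors, 1 of the 4, miR-122-3p, was called. Over all miRNAs the split moved from 88 higher and 75 lower with TMM to 49 and 101 with total counts, and the median log2 fold change from 0.30 to -0.29.

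**Figure D1:**
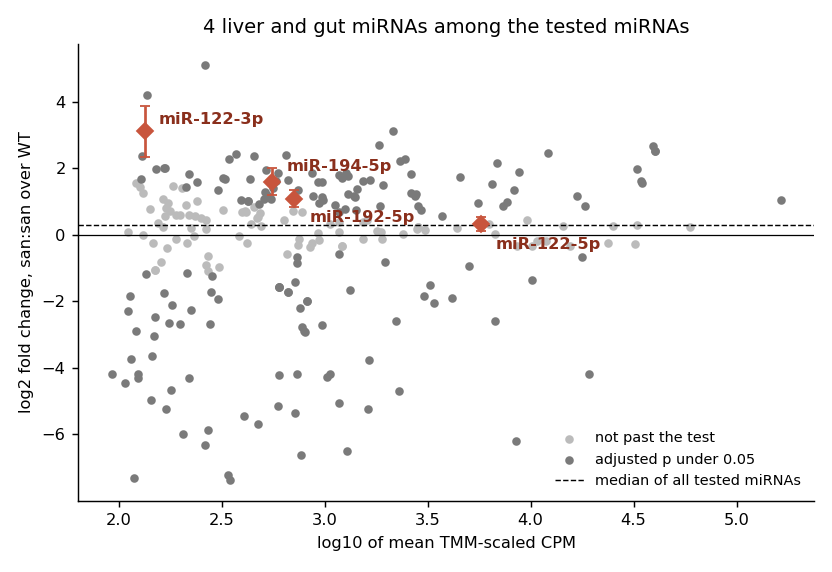
Mean level of the 254 tested miRNAs (log10 of TMM-scaled CPM, horizontal) against the log2 fold change of san:san over WT (vertical), with the 4 liver and gut miRNAs as diamonds with their SE. miR-122-5p, at 0.33, lies next to the dashed median of all tested miRNAs at 0.30, and the other 3 lie above it.

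miR-122-5p, the major strand of the liver miRNA, had 87, 195 and 109 counts in WT replicates 1 to 3, against 1073, 932 and 529 in san:san replicates 1 to 3. By counts it ranked between 29 and 41 among the miRNAs of every library. It held 0.699%, 0.675% and 0.501% of the WT libraries and 0.577%, 0.580% and 0.420% of the san:san libraries. The ranges overlap, and replicate 3 was the lowest of each genotype. Exact binomial 95% intervals ran from 0.412% to 0.604% for WT replicate 3 and from 0.385% to 0.457% for san:san replicate 3. Such intervals cover counting error only and leave out the spread between libraries. They may be too narrow even for counting error, since reads after PCR are not independent molecules.

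The mean share of miR-122-5p was 0.625% ± 0.108 in WT and 0.526% ± 0.0920 in san:san (SD, n = 3 per genotype throughout, exact permutation p = 0.3, two-sided, 0.375 adjusted over 5 shares). With 3 against 3 this test cannot give a p under 0.1. On the TMM scale the order of the means was the opposite, with 5136 ± 1078 CPM for WT against 6399 ± 858 CPM for san:san. The log2 fold change was 0.33 ± 0.21 (SE, edgeR adjusted p = 0.186) with a 95% interval of -0.13 to 0.78, and it was -0.24 with total counts (0.340). A difference of up to 0.78 on the log2 scale is therefore within the error of the TMM-scaled comparison.

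miR-122-3p, the minor strand of the same hairpin, had 1, 1 and 0 WT counts and 33, 32 and 25 san:san counts. The san:san libraries lay between 208 and 256 CPM and the WT libraries between 0 and 69.5 CPM, without overlap. In WT replicate 3, a count of 0 allows a share of up to 0.0138%, taking 3 counts as the limit, and the san:san shares ran from 0.0178% to 0.0199%. The exact 95% intervals reached 0.0448% in WT replicate 1, 0.0193% in WT replicate 2 and 0.0170% in WT replicate 3. That of WT replicate 1 included every san:san share, and that of WT replicate 2 included the share of san:san replicate 1. The test called miR-122-3p higher (edgeR adjusted p = 0.00275), but the WT side rests on 2 counts, so the fitted fold change depends on the prior count. The ratio of pooled counts, san:san over WT, was 9.02 on the TMM scale with a 95% exact counting interval of 2.43 to 75.6. Per total counts the ratio was 6.01, with an interval of 1.62 to 50.4. The fitted log2 value of 3.10 moved to 3.70 without WT replicate 1 and to 2.50 without WT replicate 3. With any 1 san:san library left out, and with a minimum count of 30, this miRNA fell below the filter and was not tested.

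miR-192-5p, which in the intestine and liver accompanies epithelial differentiation, had 7, 15 and 13 WT counts and 155, 124 and 94 san:san counts. On the TMM scale these were 487, 416 and 471 CPM in the 3 WT libraries and 977, 933 and 963 CPM in the 3 from san:san. The 3 libraries of each genotype lay close together and the genotypes did not overlap. The mean rose from 458 ± 37.0 to 958 ± 22.7 CPM. The fitted fold change was 2.12 (log2 1.09 ± 0.26, SE, edgeR adjusted p = 0.00217). As a share of all counts miR-192-5p was at 0.0560% ± 0.00392 in WT and 0.0784% ± 0.00453 in san:san, also without overlap (exact permutation p = 0.1, two-sided, 0.25 adjusted over 5 shares). With total counts the log2 value was 0.50 and the call was lost (edgeR adjusted p = 0.117). The WT depth sets the precision: the interval of the share in WT replicate 1, from 7 counts, was 0.0226% to 0.116%. It was 0.0291% to 0.0856% in WT replicate 2 and 0.0318% to 0.102% in WT replicate 3. Each of these intervals included the values of all 3 san:san libraries.

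miR-194-5p, the partner of miR-192 in its hairpin pair, had 2, 16 and 5 WT counts and 181, 109 and 61 san:san counts. Its levels were 139, 444 and 181 CPM in the 3 WT libraries and 1141, 820 and 625 CPM in the 3 from san:san. WT replicate 2 stood above the other WT libraries, and on this scale the genotypes did not overlap. The mean was 255 ± 165 CPM for WT and rose to 862 ± 261 CPM for san:san. The fitted fold change was 3.01 (log2 1.59 ± 0.40, SE, edgeR adjusted p = 0.00305). WT replicate 2 decides the size of this value, which was 2.29 without it. As a share of all counts the genotypes did overlap, at 0.0554% for WT replicate 2 against 0.0484% for san:san replicate 3 (exact permutation p = 0.2, two-sided, 0.333 adjusted over 5 shares). With total counts the log2 value was 1.01 and the call was lost (edgeR adjusted p = 0.0552).

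**Figure D2:**
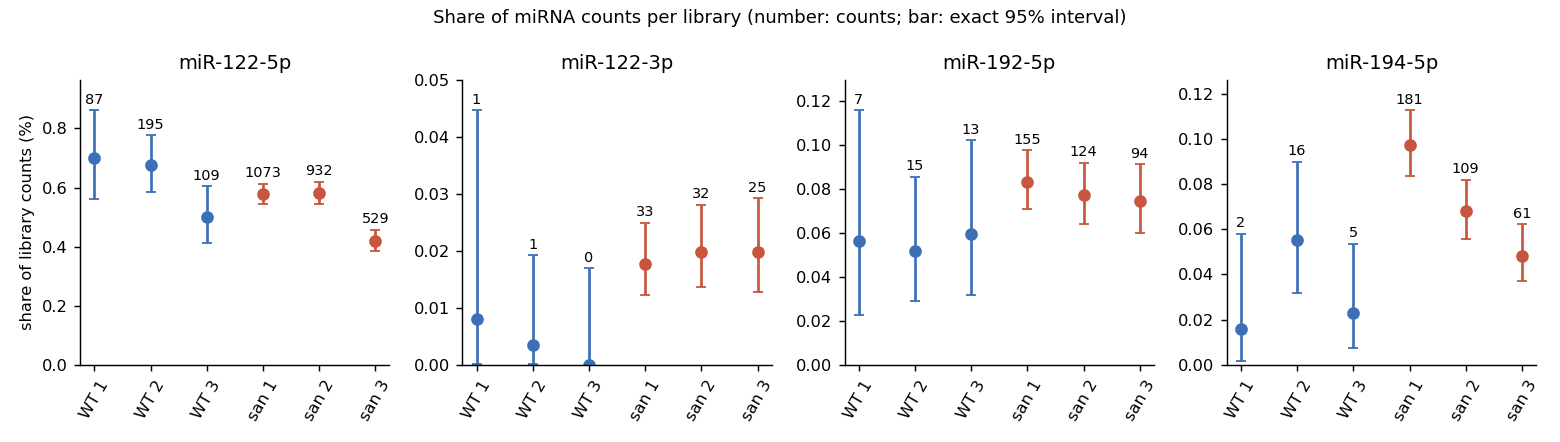
Share of all miRNA counts in each library (%, vertical) for the 4 miRNAs, with exact 95% binomial intervals and the count above each point, blue for WT and red for san:san. The intervals of the shallower WT libraries are the wider ones, and miR-122-5p is the only one of the 4 whose mean share was lower in san:san.

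On the TMM scale 3 of the 4 liver and gut miRNAs, all but miR-122-5p, had san:san libraries that all lay above all WT libraries, against 39.8% of the 254 tested miRNAs. Of these 3, miR-122-3p passed the filter through its san:san counts alone. Summed, the 4 miRNAs held 0.779%, 0.786% and 0.584% of WT counts and 0.776%, 0.745% and 0.562% of san:san counts. The sum, most of which is miR-122-5p, averaged 0.716% ± 0.115 and 0.694% ± 0.115 (exact permutation p = 0.5, two-sided). In both genotypes replicate 3 was the lowest.

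**Figure D3:**
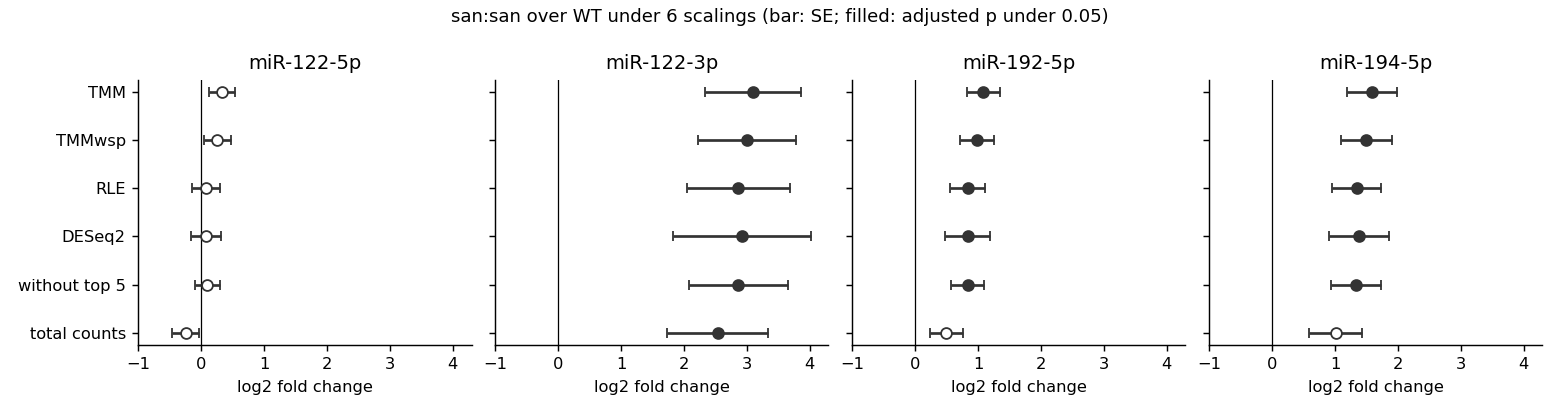
Log2 fold change of san:san over WT with SE (horizontal) for the 4 miRNAs under 6 ways of scaling the libraries, filled where the adjusted p was under 0.05. miR-122-5p is unfilled throughout and falls to -0.24 with total counts, where miR-192-5p and miR-194-5p also lose their calls.

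Ratios between miRNAs of 1 library do not depend on its scaling. Per 100 counts of miR-122-5p there were 8.05, 7.69 and 11.9 counts of miR-192-5p in the WT libraries and 14.4, 13.3 and 17.8 in the san:san libraries. The genotypes did not overlap, and WT replicate 3 came closest to san:san. The mean log2 ratio was 0.68 higher in san:san, a 1.60-fold difference (exact permutation p = 0.1, two-sided, the smallest possible, 0.15 adjusted over 3 pairs). For miR-194-5p the counts per 100 of miR-122-5p were 2.30, 8.21 and 4.59 in WT and 16.9, 11.7 and 11.5 in san:san. These also did not overlap, and the mean log2 ratio was 1.42 higher in san:san, or 2.67-fold (exact permutation p = 0.1, 0.15 adjusted). Between the hairpin partners, miR-194-5p over miR-192-5p, the ratios overlapped. They were 28.6, 107 and 38.5 counts per 100 in WT and 117, 87.9 and 64.9 in san:san (exact permutation p = 0.3, also 0.3 adjusted). No ratio can pass a threshold of 0.05 at this number of libraries. How many of all tested miRNAs were without overlap in their ratio over miR-122-5p was not counted. On the TMM scale 39.8% of them had san:san libraries that all lay above all WT libraries. The separation is therefore not shown to be particular to miR-192-5p and miR-194-5p.

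**Figure D4:**
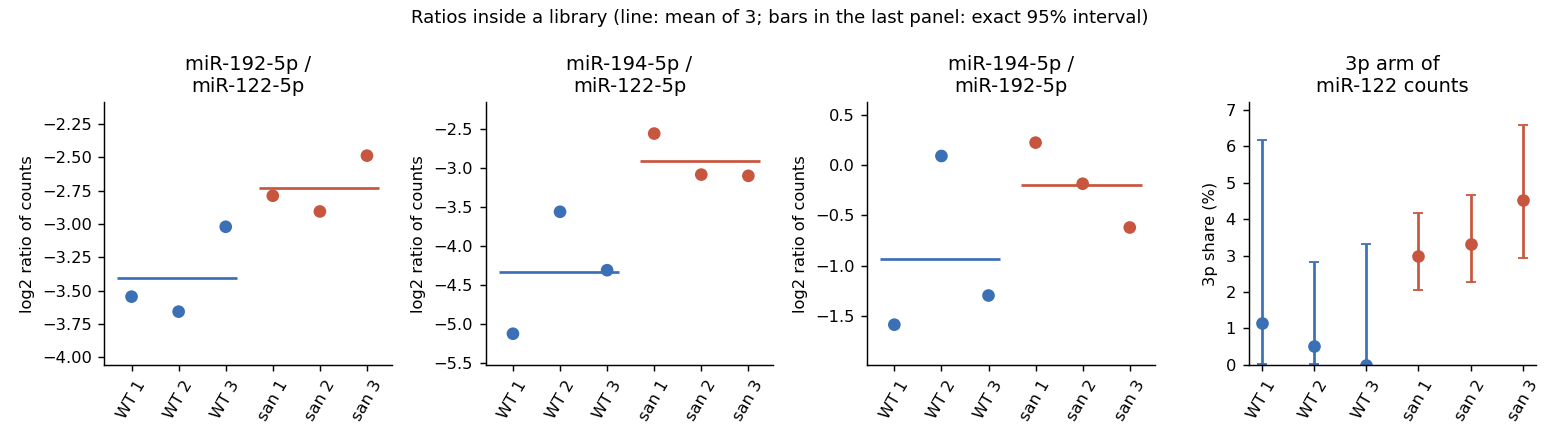
Log2 ratios of counts within each library for 3 pairs of miRNAs (vertical, lines at the mean of 3 libraries) and the 3p share of miR-122 counts (%, with exact 95% intervals), blue for WT and red for san:san. Both ratios over miR-122-5p lie higher in all 3 san:san libraries, whereas miR-194-5p over miR-192-5p overlaps between the genotypes.

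Minor strands were compared with the 5p strands of miR-122, miR-192 and miR-194. Of miR-122 counts, the 3p strand made up 1.14%, 0.510% and 0% in the WT libraries and 2.98%, 3.32% and 4.51% in the san:san libraries. The genotypes did not overlap (0.549% ± 0.569 against 3.61% ± 0.804, exact permutation p = 0.1, two-sided, the smallest possible). Pooled, these were 2 of 393 counts in WT, or 0.509% with an exact 95% interval of 0.0617% to 1.83%, and 90 of 2624 in san:san, or 3.43% (2.77% to 4.20%). The pooled intervals do not overlap, but they leave out the spread between libraries.

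miR-192-3p, the minor strand of miR-192, had 0 counts in every WT library and 4, 7 and 4 in san:san. It made up 3.87% of pooled miR-192 counts in san:san (exact 95% interval 2.18% to 6.30%), while 0 of 35 counts in WT allows a share of up to 8.57%. A difference was therefore not detectable at this depth. miR-194-2-3p, the minor strand of the Mir194-2 hairpin, had 2 counts in each WT library and 1, 0 and 1 in san:san. It was 20.7% of pooled miR-194-5p and miR-194-2-3p counts in WT (6 of 29, interval 7.99% to 39.7%) and 0.567% in san:san (2 of 353, 0.0687% to 2.03%). Since miR-194-5p is also encoded by Mir194-1, these are not strand shares of 1 hairpin. The pooled ratio, WT over san:san, was 15.0 on the TMM scale with a counting interval of 2.68 to 152. miR-194-2-3p was too low for the main test.

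miR-215-5p, which shares the seed of miR-192-5p and is encoded beside Mir194-1, had 0 counts in WT but 8, 3 and 5 in san:san. Its pooled san:san level of 41.1 CPM is near the 38.5 CPM that 3 counts over the WT libraries would give, so no difference was detectable. Of the 5 names on the list of arms and cluster partners, 3 were in the table and 0 were deep enough to test. The list held 0.00692% to 0.0161% of WT counts and 0.00623% to 0.00793% of san:san counts.

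Other miRNAs of liver, gut and epithelium were rare. Of 11 names on that list 8 were in the table, 2 were detected in WT and 8 in san:san, and 1 could be tested. That was miR-148a-3p, a miRNA abundant in liver and in the gut epithelium, with 1, 21 and 11 WT counts and 31, 18 and 24 san:san counts. Its levels were 69.5, 583 and 398 CPM in the 3 WT libraries and 195, 135 and 246 CPM in the 3 from san:san, and they overlapped because WT replicate 1 was the lowest of all 6. The log2 fold change was -1.08 ± 0.49 (SE, edgeR adjusted p = 0.0691). It did not pass without WT replicate 2 (-0.65, edgeR adjusted p = 0.433), WT replicate 3 (-1.12, 0.0859), san:san replicate 1 (-1.10, 0.0855) or san:san replicate 2 (-0.87, 0.119), nor with the replicate number as a block (adjusted p = 0.106), no filter (-0.96, 0.0777) or identical rows merged (-1.10, 0.0628). It was called lower without WT replicate 1 (-1.48, edgeR adjusted p = 0.00391) or san:san replicate 3 (-1.33, 0.0411), with RLE factors (-1.34, 0.0231), with TMMwsp factors (-1.19, 0.0406), with DESeq2 (-1.27, 0.0287), with total counts (-1.68, 0.00957) and with the 5 most abundant miRNAs taken out of the library sizes (-1.34, 0.0325). The value lay below 0 in all of these fits, in which miR-192-5p and miR-194-5p lay above 0. Its minor strand miR-148a-5p had 0 counts in WT and 2 over the san:san libraries.

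The 5 names of the miR-200 family, which marks epithelial cells, had 0 counts in the WT libraries. They were miR-200a-3p, miR-200b-3p, miR-200c-3p, miR-141-3p and miR-429-3p, with 4, 9, 12, 8 and 6 counts over the san:san libraries. Together they came to between 10 and 16 counts per san:san library. Their pooled san:san level was 100 CPM, and 3 counts over the WT libraries would give 38.5 CPM. The 95% exact counting interval of the pooled ratio, san:san over WT, started at 2.02 on the TMM scale and at 1.35 with total counts. No single member of the family reached 38.5 CPM. The family was grouped after its values were seen. miR-205-5p, a miRNA of stratified epithelium, had 1, 0 and 3 WT counts and 5, 5 and 3 san:san counts, and the counting interval of the pooled ratio, san:san over WT, was 0.201 to 2.74.

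The liver and gut miRNAs were also set against miRNAs of blood and vessel cells in the same library, a comparison added after the values were seen. Those marker lists moved with the genotype as well. The erythroid list had 4 of 5 tested names higher and 0 lower and held 3.84% to 6.25% of WT counts and 15.6% to 17.9% of san:san counts. Its names miR-486a-5p and miR-486b-5p have the same counts in every library. With these counted once, 3 of 4 were higher and the list held 2.68% to 4.59% of WT counts and 10.3% to 11.9% of san:san counts. The endothelial list, both strands of miR-126a, had 2 of 2 higher and held 1.82% to 3.69% and 3.37% to 6.96%. The lymphocyte miRNA miR-150-5p was higher and held 0.409% to 0.492% and 1.38% to 1.92%. The macrophage and myeloid list had 6 of 7 tested names higher and 0 lower, but 3 of 7 higher with total counts and 4 of 9 without WT replicate 2. Over all tested miRNAs 34.6% were called higher in the main fit, 49 of 254 with total counts and 68 of 290 without WT replicate 2. Each count of names is read against the share of its own fit. No name on these lists was at 0 counts over a genotype, and their part in the results for the liver and gut miRNAs was not tested.

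Per 1000 counts of the macrophage and myeloid list, miR-122-5p had 106, 121 and 79.7 WT counts and 53.2, 49.9 and 34.2 san:san counts. The mean was 2.24-fold lower in san:san and the genotypes did not overlap. Against the erythroid list, with both miR-486 names counted once, it was 3.67-fold lower, against miR-126a 2.59-fold and against miR-150-5p 4.41-fold, in each case without overlap. miR-192-5p was at 8.52, 9.35 and 9.50 per 1000 myeloid counts in WT and at 7.68, 6.65 and 6.08 in san:san, or 1.34-fold lower without overlap. So miR-192-5p, called higher in san:san on the TMM scale but not with total counts, was lower relative to the myeloid list taken as a whole. The most abundant name of that list in san:san was miR-142a-3p, with 895 pooled WT counts but 25376 pooled san:san counts. For miR-192-5p the pooled counts were 35 and 373. Pooled ratios of san:san over WT on the TMM scale were 5.68 for miR-142a-3p and 2.14 for miR-192-5p. Other names of the list lay below miR-192-5p: miR-142a-5p at 2.12, miR-223-3p at 1.99, miR-22-3p at 1.57, miR-146a-5p at 1.31 and miR-155-5p at 0.691. The remaining names lay above it, with miR-21a-5p at 2.251, miR-342-3p at 3.84 and miR-223-5p at 8.62. The list without miR-142a-3p was not summed per library, so miR-192-5p is not shown to be lower against the rest of the list. Against the erythroid list miR-192-5p was 2.16-fold lower and against miR-150-5p 2.59-fold, both without overlap, while against miR-126a the genotypes overlapped. miR-194-5p overlapped between the genotypes against all 4 lists, with 2.43, 9.97 and 3.65 per 1000 myeloid counts for WT and 8.97, 5.84 and 3.95 for san:san. These ratios are descriptions, and no test was made on them. The lists took up more of the san:san counts, so a miRNA with an unchanged share of all counts would also be lower against them. How many of all tested miRNAs were without overlap on these scales was not counted.

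**Figure D5:**
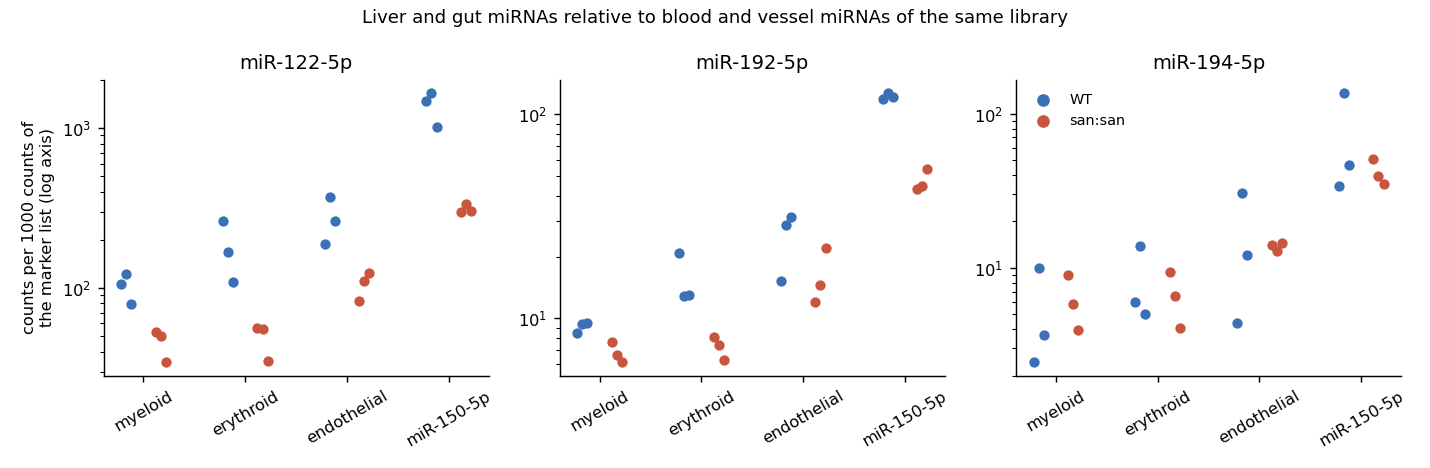
Counts of miR-122-5p, miR-192-5p and miR-194-5p per 1000 counts of the myeloid, erythroid and endothelial lists and of miR-150-5p in the same library (vertical, log axis), blue for WT and red for san:san. All 3 san:san libraries lie below all WT libraries for miR-122-5p against each list, and the libraries overlap for miR-194-5p.

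The tested miRNAs whose pattern over the 6 libraries was most like each of the 3 abundant strands were found by the root mean square difference of log2 CPM, each miRNA centred on its own mean. For miR-122-5p these were miR-146b-5p (0.13), miR-146a-5p (0.17) and miR-145a-5p (0.18), against a median difference of 0.79 over the other tested miRNAs. For miR-192-5p they were miR-191-5p (0.096), miR-425-5p (0.12) and miR-25-3p (0.13), against a median of 0.72. For miR-194-5p the nearest were further away, with miR-26a-5p at 0.37, miR-224-5p at 0.42 and miR-322-5p at 0.44, against a median of 1.00. Neither miR-192-5p nor miR-194-5p was among the 3 nearest to the other, and neither was among those of miR-122-5p. With 2, 16 and 5 WT counts of miR-194-5p, counting error adds to its distances. The measure therefore cannot tell whether the hairpin partners differ.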

How the data were processed

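Small RNA libraries of exosomes from 6 macrophage supernatants were used, grouped by sample title. Per the submitters' processing notes, reads were processed on mm9. The sources used here name no aligner, read filter or miRNA annotation release. The authors deposited whole-number counts per mature miRNA. They also deposited, for each sample, a scaled signal named TPM, whose sums of 1056890 to 1082573 exceed what TPM allows. Each of its values was a whole multiple of 1 read (100% within 0.1 reads), and the count test on the recovered reads called 163 miRNAs. The recovered reads equalled the deposited counts except for 1 value in WT replicate 2, so this is no separate result.

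edgeR 4.0.16 (R 4.3.3) was run on the deposited counts of all miRNAs: filterByExpr with a minimum count of 10, TMM factors, robust quasi-likelihood test, genotype as the only term, Benjamini-Hochberg adjustment over 254 miRNAs. The SE is the log2 fold change over the root of F. Shares and log2 ratios (0.5 added to each count) were tested between genotypes with exact permutation tests, two-sided (scipy 1.17.1). Intervals are exact (Clopper-Pearson) at 95%. The fit was tested on simulated data. The miRNAs described and the marker lists were chosen with earlier results of these data known. The text names all 4 miRNAs, every detected partner and epithelial miRNA on the lists, and the 3 nearest in pattern to each abundant strand. Members of the other lists are mostly given as counts. RefSeq and GENCODE M21 (GRCm38) served for sequences and neighbourhood only.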

Additional observations from a re-analysis of the deposited data

How the results depend on the processing

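Of the 4 liver and gut miRNAs, the direction of miR-122-3p, miR-192-5p and miR-194-5p held in every fit that tested them. miR-122-3p, with 2 WT counts, entered the filtered fits through its san:san counts alone, so its direction could hardly reverse there. With total counts miR-122-5p turned to log2 -0.24 (edgeR adjusted p = 0.340), miR-192-5p fell to 0.50 (0.117) and miR-194-5p to 1.01 (0.0552). With 1 library left out, the log2 values ran from 0.18 to 0.39 for miR-122-5p, 0.90 to 1.13 for miR-192-5p, 1.33 to 2.29 for miR-194-5p and, in the 3 fits that tested it, 2.50 to 3.70 for miR-122-3p, and no call changed. The total of called miRNAs, 163, ran from 133 to 175 in those fits, was 207 without a filter, 126 at a minimum count of 30 and 146 with DESeq2. Over a total without the 5 most abundant miRNAs, the difference in share (san:san minus WT, percentage points) turned positive for miR-122-5p (0.0506) and for the sum of the 4 (0.211). With identical rows merged the sum gave 0.00419, and with 1 library left out it ran from -0.0882 to 0.0442, so its direction is not settled. The left-out range of the difference in the 3p share of miR-122 was 2.60 to 3.37.

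Same-numbered samples deviated together with correlations of 0.10, -0.079 and 0.26, so the numbers were not taken to pair them. With the replicate number as a block 161 miRNAs were called, and miR-122-5p was at log2 0.33 (edgeR adjusted p = 0.127), miR-122-3p at 3.12, miR-192-5p at 1.07 and miR-194-5p at 1.56, with no change of call. Depth limits the WT side most: miR-122-3p and miR-194-2-3p rest there on 2 and 6 counts.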

Other observations

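miRNAs of pancreas, kidney and muscle were near the limit of counting. Of 4 names on a pancreas and kidney list 2 were in the table: miR-204-5p, a miRNA of kidney and eye epithelium, had 0 counts in WT but 7, 4 and 8 in san:san, and the pancreas miRNA miR-217-5p had 1, 2 and 0 counts in WT and 0 in san:san. The pooled san:san level of miR-204-5p was 48.8 CPM, near the 38.5 CPM that 3 counts over the WT libraries would give, and the exact counting interval of the ratio, san:san over WT, started at 0.936, so no difference was detectable. For miR-217-5p this interval was 0 to 0.485 on the TMM scale and 0 to 0.323 with total counts. That interval lay below 1, but it rests on 3 WT counts and leaves out the spread between libraries. Of 7 skeletal and heart muscle names 6 were in the table and 0 could be tested. They held 0% to 0.0312% of WT counts and 0.00484% to 0.00872% of san:san counts. miR-1a-3p, a miRNA of skeletal and heart muscle, had 8 counts in WT replicate 2 and 0 in the other WT libraries. Neural miRNAs were more abundant, at 0.143% to 0.163% of WT counts and 0.0996% to 0.118% of san:san counts. In that list miR-9-5p and miR-219a-5p were lower and miR-128-3p was higher, against 64.2% of all tested miRNAs called in either direction. Over the libraries of a genotype, miR-9-5p had 35 WT and 8 san:san counts and miR-219a-5p had 17 and 15. Both passed the filter through their WT counts alone, and a miRNA that passes in this way can hardly be called higher in san:san. The call of miR-128-3p was lost with total counts (log2 0.57, edgeR adjusted p = 0.107).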
